A study of Mus musculus with 6 samples.

Results

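Utf1, Fbxo15, Eras and Trap1a are 4 mouse genes known for their high expression in undifferentiated embryonic stem cells. They were selected on measured values of the same arrays that are described here, namely their level in epiblast stem cells (EpiSCs) against mouse embryonic stem (mES) cells and their level in EpiSCs after SB431542. Their values in both contrasts are therefore given as a description, without a test. They are 4 of 17015 genes that could be named on the array and 4 of the 16153 that entered the tests because 1 array or more showed them well above background. Each gene had 1 probe. The probes of Utf1, Fbxo15 and Eras were well above background on all 6 arrays, and that of Trap1a on 5.

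Utf1 encodes a chromatin-bound factor of undifferentiated embryonic cells. Fbxo15 encodes an F-box protein, the substrate-binding part of SCF ubiquitin ligases, and its locus has served as a reporter of the embryonic stem cell state although the cells do without the gene. Eras encodes a Ras-like protein that is active without a stimulus, signals through PI3 kinase and supports the growth of embryonic stem cells, and Trap1a is an X-linked gene for the tumour rejection antigen P1A. Enhancers that bind Oct4 (the product of Pou5f1) and Sox2 together are known for Utf1 and Fbxo15. mES cells represent the naive epiblast of the blastocyst, whereas EpiSCs represent the primed epiblast and need Activin or Nodal to stay undifferentiated. SB431542 blocks the kinases through which Activin, Nodal and TGF-beta receptors signal.

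All cells were of strain 129 and were grown in Knockout DMEM with KSR, a serum replacement. The labels give mES cells of developmental stage E3.5, an EpiSC line of stage E3.5 and an EpiSC line of stage E5.5. Each was hybridised once without SB431542 and once after 20 µM SB431542 given daily for 4 days, so 6 arrays cover 6 groups and no group has a second array. The study asked about EpiSCs isolated from embryos before implantation, and each EpiSC line here is 1 line of its stage. Nothing says that the arrays came from separate cultures, and a p-value here measures no more than the spread among these samples, which could be technical. Each array held 43379 spots for genes, of which 0 were saturated and between 82.6% and 85.7% were well above background.

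The labels were checked against markers of each state. Zfp42, a marker of naive cells, had log2 levels of 5.77 in mES cells, -2.01 in the E3.5 line and -5.15 in the E5.5 line. Esrrb, also a marker of naive cells, had 4.28, -3.50 and -2.27 in the same order. Fgf5, a marker of the primed epiblast, had -2.62, 3.07 and 4.32. Otx2, also a marker of the primed epiblast, had -0.04, -0.18 and 2.54, so it did not set the E3.5 line apart from mES cells. A level is log2 of the spot intensity minus log2 of the array's 75th percentile, so 0 is the 75th percentile, and levels of different probes are not compared. The mES arrays and the E5.5 arrays shared 1 slide, and the untreated and treated E3.5 arrays lay on slides of their own. Slide and treatment therefore cannot be told apart in the E3.5 line. Nor can slide and line where the E3.5 line is set against mES cells or the E5.5 line.

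The 250 bases before the start of transcription were read from RefSeq (GRCm38.p6) for Utf1, Eras and Trap1a, 3 of the 4 genes. No window was read for Fbxo15. The windows are shown because the genes were low together after SB431542. Each is written 5′ to 3′ on the strand of its gene. Capitals mark a GC box (GGGCGG or its reverse complement CCGCCC), a Sox-type match (ACAATG or CATTGT) and a CCAAT box (CCAAT or ATTGG). The windows are chr7:139943606-139943855 on the plus strand for Utf1, chrX:7928608-7928857 on the minus strand for Eras and chrX:139333433-139333682 on the plus strand for Trap1a.
Utf1: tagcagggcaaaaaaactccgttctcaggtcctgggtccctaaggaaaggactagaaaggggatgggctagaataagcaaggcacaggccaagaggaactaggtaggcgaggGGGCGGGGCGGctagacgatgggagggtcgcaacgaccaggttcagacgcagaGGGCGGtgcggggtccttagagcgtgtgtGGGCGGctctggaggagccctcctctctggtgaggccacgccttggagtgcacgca
Eras: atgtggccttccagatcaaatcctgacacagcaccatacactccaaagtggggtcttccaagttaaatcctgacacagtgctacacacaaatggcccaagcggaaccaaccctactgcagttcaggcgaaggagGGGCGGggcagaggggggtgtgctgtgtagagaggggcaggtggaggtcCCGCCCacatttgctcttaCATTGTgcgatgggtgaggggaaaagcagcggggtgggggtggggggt
Trap1a: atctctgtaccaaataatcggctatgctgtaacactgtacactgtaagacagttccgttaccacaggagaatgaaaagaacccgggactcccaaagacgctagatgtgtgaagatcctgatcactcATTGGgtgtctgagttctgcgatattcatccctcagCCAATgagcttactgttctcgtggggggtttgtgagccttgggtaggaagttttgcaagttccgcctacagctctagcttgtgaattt
The Utf1 window had 14 CpG dinucleotides, 61.6% G and C, and 4 GC boxes, the most distant pair overlapping by 1 base. That of Eras had 6 CpG, 58.0% G and C, 2 GC boxes and 1 Sox-type match. That of Trap1a had 7 CpG, 46.8% G and C and 2 CCAAT boxes. Both strands of all 32851 promoter windows were searched, and 32.7% held a GC box, 10.7% a Sox-type match and 33.8% a CCAAT box. The octamer ATGCAAAT, present in 1.6% of windows, and TATAAA, present in 12.4%, were in none of the 3. These matches describe letters in a short window, and say nothing of sites elsewhere in the locus.

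In the comparison of EpiSCs with mES cells, Fbxo15 stood lower in both lines by a similar wide margin, Utf1 and Trap1a stood lower by an amount that differed between the lines, and Eras had a similar level in all 3 untreated cell types. Fewer cells that express a gene and less RNA per cell cannot be told apart in these bulk samples.

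Fbxo15 had an intensity of 54470 ± 5447 in mES cells, 819 ± 81.9 in the E3.5 line and 805 ± 80.6 in the E5.5 line, where the error is the scanner program's estimate for the spot. Its log2 levels were 5.30, -0.54 and -0.61. Both EpiSC lines were far below mES cells, and the gap of 0.07 between the lines was smaller than the combined spot error of 0.20. Fbxo15 was 57.2-fold lower than in mES cells in the E3.5 line and 60.0-fold lower in the E5.5 line, a mean log2 difference of -5.87 ± 0.05 (SD, n = 2 lines). Both lines were set against the same single mES array. Every SD of a difference from mES cells is thus the spread between the lines and holds no error of that array.

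Utf1 had intensities of 17118 ± 1712 in mES cells, 6533 ± 653 in the E3.5 line and 3213 ± 321 in the E5.5 line, or log2 levels of 3.63, 2.46 and 1.39. The levels went down from mES cells to the E3.5 line and again to the E5.5 line. Each gap was above the spot error, which does not cover differences between slides. The EpiSC lines held 44.4% and 21.2% of the mES level, and the mean log2 difference was -1.71 ± 0.76 (SD, n = 2 lines).

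Trap1a showed the same order, with intensities of 17089 ± 1709, 7973 ± 797 and 3133 ± 313 and log2 levels of 3.63, 2.74 and 1.35. The E3.5 line held 54.2% of the mES level and the E5.5 line 20.7%, a mean log2 difference of -1.58 ± 0.98 (SD, n = 2 lines). For Utf1 and Trap1a alike, the E5.5 line was about 1 log2 unit or more below the E3.5 line.

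Eras had intensities of 3187 ± 319, 1991 ± 199 and 2437 ± 244 in mES cells, the E3.5 line and the E5.5 line, and log2 levels of 1.20, 0.74 and 0.99. The EpiSC lines held 72.6% and 86.2% of the mES level, and the mean log2 difference was -0.34 ± 0.17 (SD, n = 2 lines). Of the 4 genes, 2 (Utf1 and Fbxo15) were at least 2-fold lower than in mES cells in both lines. Over all tested genes, 7.39% met that rule, and nothing is read from the members' count since the contrast served to choose them. The median log2 difference of all tested genes was -0.06.

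**Figure D1:**
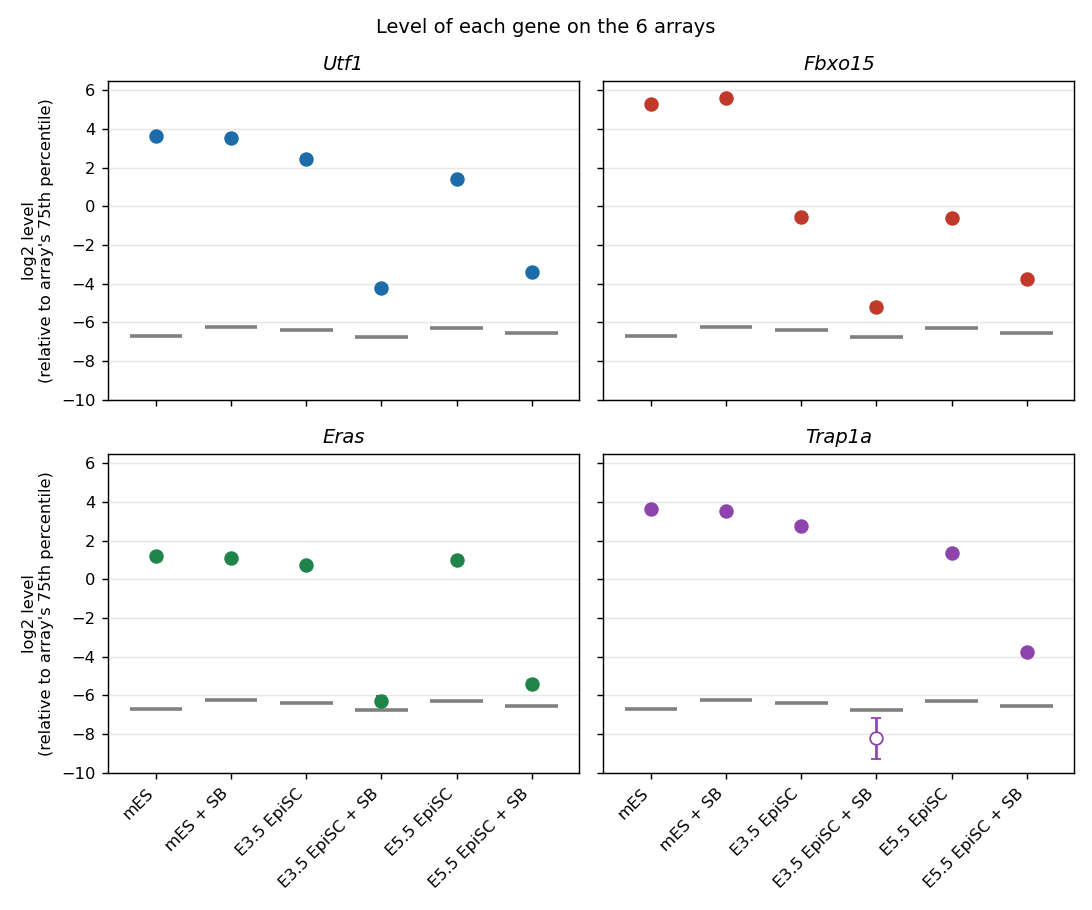
Log2 level of Utf1, Fbxo15, Eras and Trap1a (vertical axis, relative to the array's 75th percentile) on the 6 arrays (horizontal axis; SB is SB431542), 1 array per point. Bars are the scanner program's spot error, mostly smaller than the point, an open point is not well above background, and grey lines mark the lowest level among probes well above background on that array. All 4 genes are lowest on both treated EpiSC arrays, and only Fbxo15 is far below its mES level in untreated EpiSCs.

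After SB431542, all 4 genes were at their lowest in both EpiSC lines, and none of them was 2-fold higher or lower in treated mES cells. Eras, which had differed least between untreated EpiSCs and mES cells, had one of the wider gaps between treated and untreated EpiSCs. Fbxo15, which had differed most, had the narrowest gap with SB431542 in each line. The lowest level well above background was -6.75 on the treated E3.5 array and -6.57 on the treated E5.5 array. From untreated levels of -0.54 and -0.61, Fbxo15 had less room above it than the other genes. Its treated signals were still well above background. The untreated EpiSC arrays serve in both comparisons, so a high or low value there moves them in opposite directions, and the sizes are set side by side without a test of their relation.

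Eras, at 1991 ± 199 in the untreated E3.5 line, was at 22.9 ± 4.20 after SB431542, and went from 2437 ± 244 to 34.8 ± 4.67 in the E5.5 line. The treated levels were -6.29 and -5.39 on the log2 scale, marked well above background on both arrays. They were close to it, at 1.37 and 2.26 times the lowest signal so marked on the array. The spot error was 18.3% of the signal in the E3.5 line. Treated cells were 131-fold lower in the E3.5 line and 83.3-fold lower in the E5.5 line, a mean log2 difference of -6.71 ± 0.46 (SD, n = 2 lines). They kept 0.761% and 1.20% of the untreated level. In mES cells the intensity was 3187 ± 319 without and 2729 ± 273 with SB431542, so treated cells kept 92.6%, a log2 difference of -0.11 that lay within the combined spot error.

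Utf1 had treated intensities of 97.4 ± 10.4 in the E3.5 line and 136 ± 14.1 in the E5.5 line, with log2 levels of -4.21 and -3.42. These were 101-fold and 28.0-fold below the untreated lines, and the mean log2 difference was -5.74 ± 1.31 (SD, n = 2 lines). The wider gap of the E3.5 line went with a higher untreated level and a lower treated level than in the E5.5 line. Treated mES cells, at 14810 ± 1481 against 17118 ± 1712, kept 93.6% of the untreated level.

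Trap1a had treated intensities of 6.01 ± 4.35 in the E3.5 line, not well above background, and 108 ± 11.5 in the E5.5 line. Against the lowest signal of any probe that was well above background on that array, the E3.5 line was at least 723-fold lower after SB431542. The E5.5 line was 34.5-fold lower, a log2 difference of -5.11, and kept 2.90%. The measured log2 difference of the E3.5 line, -10.97, rests on a signal whose spot error was 72.4% of its value. Treated mES cells had 15014 ± 1501 against 17089 ± 1709 and kept 95.0%.

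Fbxo15 had treated intensities of 48.7 ± 6.34 and 107 ± 11.4 in the E3.5 and E5.5 lines, with log2 levels of -5.21 and -3.77. From untreated EpiSC levels that were already low, these were 25.4-fold and 8.97-fold lower, a mean log2 difference of -3.92 ± 1.06 (SD, n = 2 lines). The treated lines kept 3.93% and 11.2% of the untreated level. In mES cells the intensity was 61322 ± 6132 with and 54470 ± 5447 without SB431542, a log2 difference of 0.28 that was 1.39 times the combined spot error. Fbxo15 was the 1 gene of the 4 whose treated mES level was the higher one.

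All 4 genes were at least 2-fold lower with SB431542 in both lines, a rule met by 6.06% of all tested genes. The choice of genes used that contrast, so nothing is read from this count. In mES cells, where there was 1 array with and 1 without SB431542, 0 of the 4 genes passed 2-fold, against 1.13% of all tested genes that were lower and 1.42% that were higher by that much. The median of all tested genes was -0.31 in the E3.5 line and -0.05 in the E5.5 line with SB431542, and 0.02 in mES cells. Relative to that shift the members' differences in the E3.5 line are smaller by 0.31 in log2 units. A list of 13 housekeeping genes had a median of -0.93 in the E3.5 line and -0.25 in the E5.5 line, and its part in the values of the 4 genes was not tested. All E5.5 and mES arrays were on 1 slide, so the E5.5 values are also within-slide values.

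**Figure D2:**
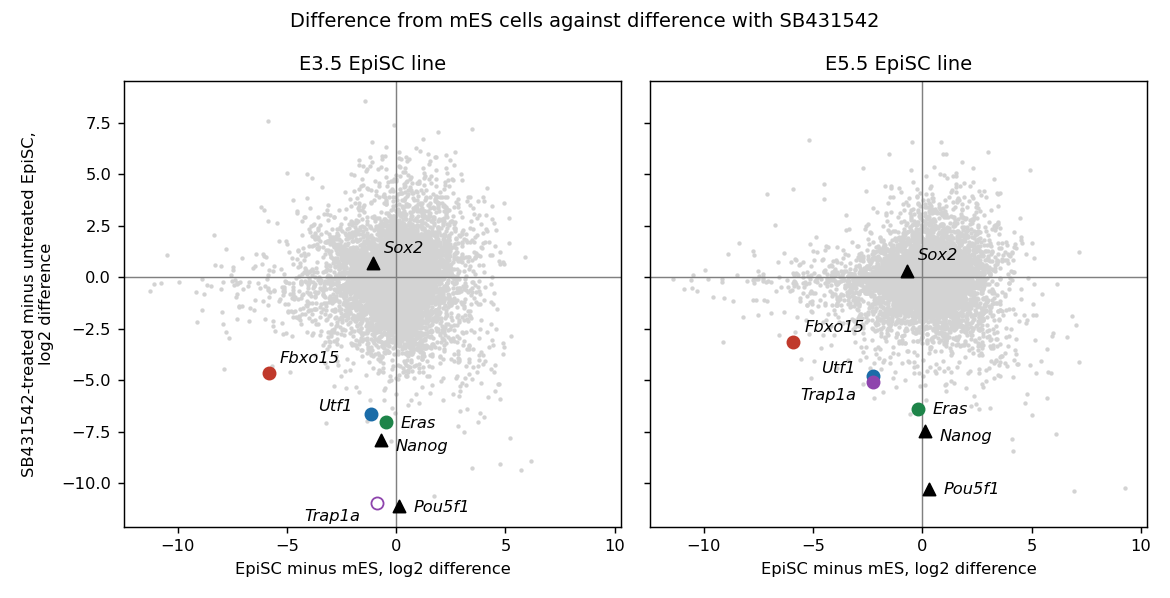
For each EpiSC line, the log2 difference from mES cells (horizontal axis) and the log2 difference of treated from untreated EpiSCs (vertical axis). Coloured points are the 4 genes, black triangles Pou5f1, Nanog and Sox2, grey dots all tested genes, and the open point ends at a signal not well above background. Eras lies near 0 on the horizontal axis, at -0.46 and -0.21, and Fbxo15 at -5.84 and -5.91.

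The whole log2 distance from mES cells to treated EpiSCs could be divided into the step from mES cells to untreated EpiSCs and the step from untreated to treated EpiSCs. For Fbxo15 the difference of treated EpiSCs from mES cells was -10.51 in the E3.5 line and -9.07 in the E5.5 line, and the first step made up 55.6% and 65.1% of it. For Eras the differences were -7.50 and -6.59, and the first step made up 6.15% and 3.25%. Fbxo15 thus had more of its distance in the first step, and Eras nearly all in the second, in each line. The second step cannot be measured below background, so a wide first step leaves less room for it. Treated Fbxo15 was at 2.92 (E3.5) and 6.92 (E5.5) times the lowest signal well above background. Treated Eras was at 1.37 and 2.26 times that signal. The part of this limit in the shares was not tested.

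Utf1 was between them, with differences of -7.84 and -7.05 and first steps of 15.0% and 31.8%. Trap1a had a first step of 7.44% in the E3.5 line, where the measured difference of -11.85 ends at background, and of 30.8% in the E5.5 line, where the difference was -7.38. The share of the first step was higher in the E5.5 line than in the E3.5 line for Utf1, Fbxo15 and Trap1a, and lower for Eras. Utf1 and Fbxo15, 2 of the 4, were at least 2-fold lower in both steps and both lines, as were 1.11% of all tested genes.

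**Figure D3:**
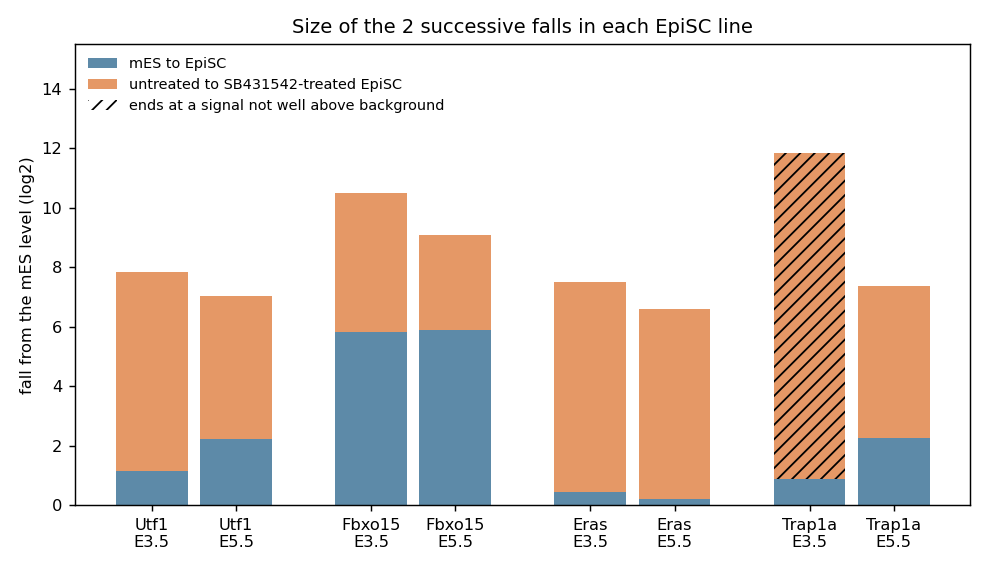
Log2 distance below the mES level (vertical axis) for each gene in each EpiSC line (horizontal axis), stacked as the step from mES cells to untreated EpiSCs (blue) and from untreated to SB431542-treated EpiSCs (orange). Hatching marks the step that ends at a signal not well above background. The blue part is 55.6% and 65.1% of the bar for Fbxo15 and 6.15% and 3.25% for Eras.

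The order of the 6 levels was the same for Utf1 and Trap1a, from mES cells through treated mES cells, the E3.5 line, the E5.5 line and the treated E5.5 line to the treated E3.5 line. For both, treated and untreated mES cells were within the combined spot error of each other, and every other neighbouring pair was further apart. For Fbxo15 treated mES cells were highest, and the untreated EpiSC lines were within the spot error. For Eras the order among untreated EpiSCs was turned, with the E5.5 line above the E3.5 line by 0.25, and its mES, treated mES and E5.5 levels followed each other within the spot error. In all 4 genes the treated E3.5 line was lowest, below the treated E5.5 line by 0.79 in Utf1, 1.44 in Fbxo15, 0.90 in Eras and 4.47 in Trap1a. The last of these rests on the Trap1a signal not well above background.

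The difference between the EpiSC lines was not part of the choice of genes. It was tested in a limma model of line and treatment over all 6 arrays. The lines lay on different slides, so line and slide cannot be told apart in this test. Without SB431542, the E3.5 line was 2.10-fold higher than the E5.5 line in Utf1 and 2.63-fold higher in Trap1a. Their levels in the treated lines were ordered the other way, and the median of all tested genes was 0.23 higher in the treated E5.5 line than in the treated E3.5 line, against -0.01 between the untreated lines. The model's log2 difference of the E5.5 from the E3.5 line was -0.14 ± 1.63 (SE) for Utf1, with a limma adjusted p of 0.985. It was 0.68 ± 1.23 for Fbxo15 (limma adjusted p of 0.889), 0.58 ± 1.84 for Eras (0.938) and 1.54 ± 2.61 for Trap1a (0.883). None of the 4 genes passed, as 0.0% of all tested genes did, and 1263 genes had an unadjusted p under 0.05. The model gives mES cells and EpiSCs 1 common treatment term, so that the gap between their responses, on which the genes were chosen, enters these SEs, and Sox2, without such a gap, had an SE of 0.27. With 1 mES array left out, the fit rests on the 4 EpiSC arrays and the SEs were 0.51 for Utf1, 0.45 for Fbxo15, 0.32 for Eras and 1.38 for Trap1a. The limma adjusted p was then 0.934, 0.670, 0.626 and 0.740 in the same order. The lines' difference in Utf1 and Trap1a had opposite signs with and without SB431542, which a mean over both does not describe.

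Pou5f1, Nanog and Sox2, the core transcription factors of pluripotent cells, had the same scale of values. Pou5f1 had log2 levels of 5.59 in mES cells, 5.73 in the E3.5 line and 5.88 in the E5.5 line, and of -5.39 and -4.38 after SB431542. In the limma model of 4 arms (untreated and treated mES cells, untreated and treated EpiSCs, with the 2 lines as replicates) it fell with SB431542 by 10.69 ± 0.42 (SE, adjusted p = 0.0235). Nanog fell by 7.68 ± 0.55 (adjusted p = 0.0240), and its levels before SB431542 were 3.48, 2.80 and 3.60 in mES cells and the E3.5 and E5.5 lines. Sox2 had levels of 2.11 and 2.47 in the untreated and 2.77 and 2.80 in the treated EpiSC lines, and did not pass. In treated mES cells, the log2 differences were -0.24 for Pou5f1, -0.66 for Nanog and 0.11 for Sox2. Like Nanog and Pou5f1, Eras had a narrow difference between untreated cell types and a wide one after SB431542. Its log2 difference with SB431542, -6.71, was near that of Nanog and smaller than that of Pou5f1.

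Over all genes, limma at an adjusted p of 0.05 called 195 genes (1.21%) lower and 149 (0.922%) higher in treated EpiSCs. With the line as a block, which pairs each treated with its untreated array, the calls were 494 lower and 378 higher, 872 together. Without the untreated E3.5 array 203 genes were called. Without the treated E3.5 or the treated E5.5 array 0 genes passed, with 2441 and 5039 at an unadjusted p under 0.05. For EpiSCs against mES cells it called 183 genes (1.13%) lower and 62 (0.384%) higher. Without either treated EpiSC array 0 passed there, with 3304 at an unadjusted p under 0.05 in each case. Every call of a single gene or list in these 2 contrasts rests on those arrays in this way.

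Of 20 genes associated with early embryonic stem cells, candidates of reprogramming screens like the 4 genes, 19 were tested apart from them. Of these, 5 were lower in EpiSCs than in mES cells and 0 higher, with a median log2 difference of -2.19 against -0.06 for all tested genes. Dppa5a fell by 9.24 ± 0.43 (SE, limma adjusted p = 0.0108) and Khdc3 fell by 7.33 ± 0.34 (limma adjusted p = 0.0108). With SB431542 in EpiSCs, 3 passed lower (Pou5f1, Nanog and Dppa4) and 0 higher, with a median of -0.75 against -0.19, and 5 passed lower with the line as a block. Dppa4 was well above background on neither treated EpiSC array. In this list, Fbxo15 lay with the genes of the wider gap from mES cells, and Eras with those near 0.

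The 22 listed genes of naive pluripotency, 19 of them tested, had 5 lower and 0 higher in EpiSCs, with a median of -3.86. Tdh, an enzyme of threonine breakdown, fell by 7.41 ± 0.45 (SE, limma adjusted p = 0.0133), and Nr5a2, a nuclear receptor, fell by 5.69 ± 0.31 (0.0122). With SB431542, 2 were lower (Nanog and Nr5a2) and 0 higher, and with the line as a block 3 were lower and 1 higher. The median was -0.72. Of 24 primed epiblast genes, 22 were tested, of which 3 were higher and 1 lower in EpiSCs, and 9 were lower and 1 higher with SB431542 (10 and 1 with the line as a block). Fgf5 rose by 6.32 ± 0.60 from mES cells to EpiSCs (SE, limma adjusted p = 0.0281). With SB431542 its log2 levels were -6.29 and -6.04. Fbxo15, at -5.87 in EpiSCs and -3.92 with SB431542, was below the naive median in both contrasts.

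Of 7 genes listed as having a known composite Oct4 and Sox2 element, 6 were tested. With SB431542, 3 (Pou5f1, Lefty1 and Nanog) were lower and 0 higher, and the median was -5.01; with the line as a block 4 were lower. Of 17 listed targets of Activin and Nodal signals, 16 were tested, of which 1 was higher in EpiSCs, and 6 were lower and 0 higher with SB431542 (9 lower and 2 higher with the line as a block), with a median of -3.16. Lefty1, an inhibitor of Nodal, fell by 10.36 ± 0.58 (SE, limma adjusted p = 0.0235), and Tdgf1, a co-receptor of Nodal, fell by 6.82 ± 0.52 (limma adjusted p = 0.0262). In treated mES cells the log2 difference from the untreated level was -7.79 for Lefty1 and -4.25 for Lefty2, an inhibitor of the same family, whereas the 4 genes were between -0.11 and 0.28 there. Both Lefty genes were thus far lower on the treated mES array, on which the levels of Utf1, Fbxo15, Eras and Trap1a stayed within 2-fold.

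The families to which the proteins belong were counted next. Of 18 genes of the Ras family, 15 apart from Eras were tested, and 0 passed lower or higher in EpiSCs or with SB431542 (0 and 1 with the line as a block), with medians of 0.05 and -0.42. Hras had log2 levels from 2.07 to 3.20 on the 6 arrays. Of 17 genes of the PI3 kinase and Akt pathway, in which the Eras protein acts, 16 were tested and 0 passed in either contrast (1 was higher with SB431542 with the line as a block), with medians of 0.27 and 0.18. Of 40 genes of SCF ubiquitin ligases and F-box proteins, 37 apart from Fbxo15 were tested and 0 passed, with and without the block, with medians of -0.20 and -0.16. Cul1, the scaffold of these ligases, had log2 levels from 0.20 to 0.53.

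Trap1a and Eras are X-linked, and the other 551 tested X-linked genes had medians of 0.02 in EpiSCs against mES cells and -0.15 with SB431542, beside the -0.06 and -0.19 of all tested genes. Of the 551, 21 (3.81%) were called lower in EpiSCs and 59 (10.7%) were at least 2-fold lower in both lines, against 161 (1.03%) and 1133 (7.26%) of the 15598 other tested genes. With SB431542, 5 (0.907%) were called lower, against 187 (1.2%). Of 28 listed X-linked tumour antigen and reproductive genes, 18 apart from Trap1a were tested. Of these, 9 were lower in EpiSCs and 0 higher, with a median of -4.70 as measured. With signals not well above background set to the lowest level well above it, the median was -3.70. Rhox5, a homeobox gene, fell by 7.94 ± 0.42 (SE, limma adjusted p = 0.0122), and Xlr5a fell by 6.68 ± 0.61 (limma adjusted p = 0.0264). Of the 9 called genes, 6 were not well above background on any EpiSC array (Magea1, Mageb4, Fmr1nb, Tktl1, Tex11 and Usp26), so their size there is only a bound. With SB431542 0 of the 18 passed (1 was lower with the line as a block), and the median was -0.19 as measured and -0.31 with such signals set to that level. Trap1a, at -1.58 in EpiSCs and at least 723-fold and 34.5-fold lower with SB431542, had the reverse sizes of the 2 differences.

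**Figure D4:**
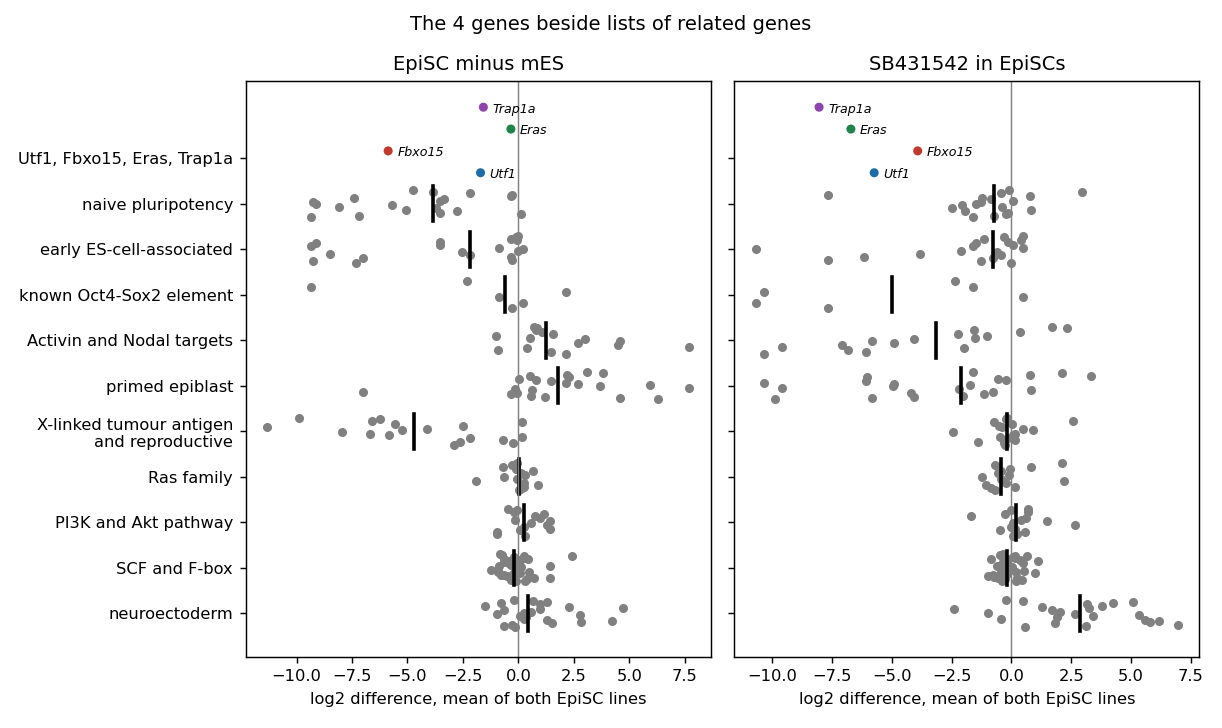
Log2 difference of EpiSCs from mES cells (left) and of treated from untreated EpiSCs (right), as the mean of both lines, for the 4 genes (coloured) and for the tested genes of 10 lists (grey, 1 point per gene, with the median as a black line). Vertical position within a row has no meaning, and the Trap1a value on the right includes a signal not well above background. Eras lies near 0 on the left and beyond most listed genes on the right, and Fbxo15 is low on both sides.

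Markers of other cell types were summed per array beside these results. Of 25 neuroectoderm markers, 24 were tested and 8 were higher and 0 lower in treated EpiSCs (14 and 1 with the line as a block). Their summed log2 level was 3.38 in mES cells, 4.42 and 4.04 in the untreated and 7.96 and 7.48 in the treated EpiSC lines. Hes5, a Notch effector, rose by 6.97 ± 0.47 (SE, limma adjusted p = 0.0235), and Zic1, a neural transcription factor, by 5.78 ± 0.42 (limma adjusted p = 0.0240). The summed level of 20 fibroblast and feeder markers was 5.69 in mES cells. It was 6.39 and 7.13 in the untreated E3.5 and E5.5 lines and 6.25 and 7.07 in the treated ones. Such a sum is set mostly by the brightest genes. The median log2 difference of these markers with SB431542 was 1.04 in the E3.5 line and -0.74 in the E5.5 line. Of these markers, 0 passed in either contrast. Of 15 tested trophectoderm markers 1 was lower with SB431542 (3 with the line as a block), and the summed levels ran from 3.09 to 5.48. Of 15 tested markers of primitive and visceral endoderm, 2 were lower in EpiSCs and 1 was higher with SB431542 (2 lower and 1 higher with the line as a block), and the summed levels ran from 2.10 to 3.72. The treated EpiSC arrays with the lowest levels of the 4 genes were thus those with the highest sum of neuroectoderm markers, and the part of other cell types in the 4 genes' levels was not tested.

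The genes whose 6 values were most like those of each member were found by the root mean square (RMS) difference between levels, each gene centred on its own mean over the 6 arrays, among all tested genes. The arrays shared by any pair of genes make these values a description. For Eras they were Tdgf1 at 0.38, Nanog at 0.47 and Smagp, a small membrane glycoprotein, at 0.65, and 9 genes lay within 1 log2 unit. Tdgf1 differed from Eras in mES cells, where its log2 difference with SB431542 was -1.27. For Utf1 they were Smagp at 0.47, the zinc finger gene Zfp296 at 0.66 and Eras at 0.69, and 21 genes lay within 1 log2 unit.

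For Fbxo15 the nearest were Tex19.1, a gene of germ cells and placenta, at 0.54, the acetylcholine receptor subunit Chrna9 at 0.54 and Rhox5 at 0.92, and 4 genes lay within 1 log2 unit. Chrna9 has signals not well above background among its 6. With every such signal set to the lowest level well above background on its array, Chrna9 was no longer among the 3, and Gtsf1l, at 0.96, took its place. The distances of Trap1a as measured were 1.39 to Gdf3, a ligand of the TGF-beta family, 1.42 to Nanog and 1.50 to Utf1, and rest on its own signal not well above background on the treated E3.5 array. With that signal set to the lowest level well above background, Utf1 came first at 0.96, followed by Gdf3 at 1.06 and Nanog at 1.07, so the order has no standing. Gdf3 shared the wider gap of the E3.5 line, with -7.94 against -4.37 in the E5.5 line. Among the members, Utf1 and Eras were closest (RMS 0.69), and Fbxo15 and Eras furthest apart (2.35). From Eras, Trap1a was at 1.55 as measured and at 1.09 with its signal set to that level.

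**Figure D5:**
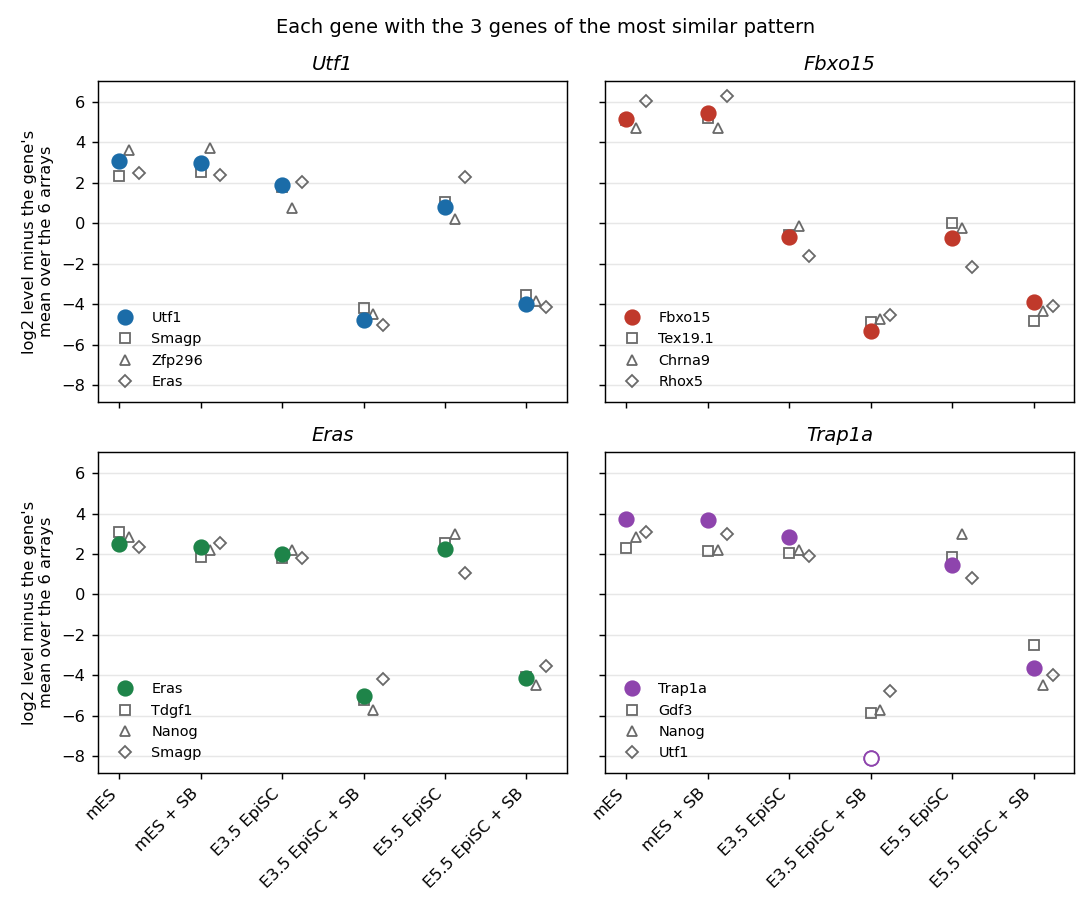
Log2 level minus the gene's own mean over the 6 arrays (vertical axis) on each array (horizontal axis; SB is SB431542) for each of the 4 genes (filled colour) and the 3 genes nearest to it (grey outlines, shifted sideways so that they can be told apart). The open Trap1a point is not well above background. The RMS difference of the nearest gene is 0.38 for Eras, 0.47 for Utf1, 0.54 for Fbxo15 and 1.39 for Trap1a, the last as measured and 0.96 with the open point set to the lowest level well above background.

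The measured genes on either side of each member, in the gene order of GRCm38.p6, are given for context. Beside Utf1, Kndc1 had a mean log2 difference of -3.74 in EpiSCs and of 1.66 with SB431542, and Adam8 had 0.74 and 1.28. Beside Fbxo15, Cyb5a had -0.09 and -1.34 and Timm21 had 1.13 and -0.44. Beside Eras, Pcsk1n had 0.90 and -1.12 and Hdac6 had -0.52 and -0.28. Beside Trap1a, Pwwp3b had 1.60 and -0.48 and Radx 0.02 and 2.36. Of these 8 neighbours, 2 (Cyb5a and Pcsk1n) were at least 2-fold lower with SB431542 in both lines, by less than the member beside them. Over all tested genes 6.06% met that rule, and nothing is read from a count among 8 genes.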

How the data were processed

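Per the labels, RNA of 6 samples carried the dye Cy3, 1 sample to an Agilent array. The deposited files give each spot's intensity, not logged, from which the scanner program Agilent Feature Extraction had subtracted background and spatial trends per the file headers. The headers and the submitters' processing notes (version 9.1) name different versions of it. The yes-or-no marks for spots above background, saturated or outlying, and the spot error, are deposited values of the same program.

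Control and outlier spots were left out and repeats averaged. Levels were log2 of the processed signal minus that of the array's 75th percentile. Of 41174 probes, 24375 were named by transcript accession through the RefSeq table of GRCm38.p6, since the files used hold no gene names. A gene was represented by its brightest probe. Groups came from the sample titles. The 4-arm model (2 residual degrees of freedom) and the model of line plus treatment used limma 3.58.1 in R 4.3.3 with Benjamini-Hochberg adjustment at 0.05, tested on simulated data. It assumes that the single mES arrays have the same spread as the EpiSC lines. The labels tie each treated to its untreated array by line. The number of arrays limits the precision, and so does background for dim spots. A bound ("at least N-fold") sets the untreated signal against the lowest signal well above background on the treated array. Lists are described by counts and medians. In a list, up to 4 called genes with the largest change could be named. The nearest patterns are the 3 genes with the smallest RMS difference. The members and lists were chosen with earlier results of these data known.

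Alternatives were other scalings, background correction, filters, probe rules, the deposited value table, the line block and leaving out each array. Background correction by normexp used the median signal, since the files hold no mean signal, a choice made after seeing the data, as was the setting of signals not well above background to the lowest level above it.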

Additional observations from a re-analysis of the deposited data

Results flagged for a closer look

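Fbxo15 was 0.28 log2 units higher with SB431542 in mES cells, while it was lower in both EpiSC lines, by log2 differences of -4.67 and -3.16. It was flagged because the sign differed between the cell types. This is not particular to Fbxo15. Of the 3 genes nearest to it, Tex19.1 (0.08 in mES cells) and Rhox5 (0.25) had the same signs, and Chrna9 (-0.01) did not. Over 7 alternative settings the mES value ran from 0.12 (normexp) to 0.28, and 0.12 is within the combined spot error of 0.20. The difference between them was not tested, since the gene was chosen on this contrast, and the mES value rests on 1 array with and 1 without SB431542.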

How the results depend on the processing

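Of 82 alternative values of the 4 genes' differences, 30 equal the reported ones. They come from the probe rule, the filters and the deposited value table. The probe rule leaves a gene with 1 probe as it is, the filters change only which genes are tested, and the deposited table holds the same intensities. All 82 kept their direction. For EpiSCs against mES cells, leaving out 1 of 2 lines cannot move a mean by 1 SD. The SD there holds no error of the single mES array, and that of Fbxo15 is narrow (0.05). For SB431542 in EpiSCs 1 array was left out at a time, and no mean moved by 1 SD. The SD of Trap1a with SB431542 is wide (4.15), and its value under normexp was -5.54. The values that moved by over 1 SD were Fbxo15 in EpiSCs against mES cells, -5.50 with normexp and -5.68 with quantile normalization, and with SB431542 under normexp -2.78 for Fbxo15 and -4.73 for Eras. The filter for genes above background on all 6 arrays leaves Trap1a out. None of 51 line tests of the 4 genes had an adjusted p under 0.05 (0 calls); adjusted p ran from 0.334 to 0.9999. Genes called in EpiSCs against mES cells numbered 245, with 576 under normexp and 0 to 245 with 1 array left out, and no fit was made without the untreated mES array. For SB431542 in EpiSCs they numbered 344, with 691 under normexp, 546 with the filter on all 6 arrays, 872 with the line as a block (which pairs the arrays), and 0 to 344 with 1 array left out. Between the EpiSC lines 0 were called, and 0 to 6 with 1 array left out (4 without either mES array, 5 without the untreated and 6 without the treated E5.5 array). In mES cells 413 genes passed 2-fold, 175 under normexp. Normexp added an offset of 50 to each signal, which makes log2 differences of dim spots smaller by construction. The part of that offset in these changes, and any other cause, was not tested. Signal close to background limits the treated EpiSC values of Trap1a and Eras. Each group has 1 array, so the line and not a replicate number pairs the arrays.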
